A study of Mus musculus with 6 samples.

Results

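The nuclear-encoded subunits of the respiratory complexes I, III, IV and V were examined in a pair of mouse pheochromocytoma cell lines, MTT and MPC. A gene was a member if a probe set of the array was annotated with its symbol and no other, and the brightest such probe set stood for the gene. Of 52 listed subunit genes 51 met this rule, among 19937 genes measured in all. Cox7c has no such probe set and is not reported. The 51 genes comprise 30 of complex I, 6 of complex III, 10 of complex IV and 5 of complex V.

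Complex I takes electrons from NADH, complex III passes them from ubiquinol to cytochrome c, and complex IV hands them to oxygen. The protons that these complexes pump across the inner mitochondrial membrane drive complex V, the ATP synthase. Most subunits are encoded in the nucleus and the remainder in mitochondrial DNA, and loss of the neighbouring complex II, succinate dehydrogenase, is a known cause of hereditary pheochromocytoma and paraganglioma. Rotenone, which blocks complex I, was among the compounds of the drug screen in MTT cells that these arrays accompanied.

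The data were 6 one-colour Affymetrix Mouse Gene 1.0 ST arrays, 3 of untreated MTT and 3 of untreated MPC cells. MPC cells are a well differentiated line that came from pheochromocytomas of Nf1 knock-out mice, and MTT cells are a fast-growing line obtained from liver metastases of MPC cells, so both carry the Nf1 background. Each is a single line, and what sets MTT apart from MPC cells cannot be told apart from what sets metastases apart from their source. The labels of all 6 arrays name a liver metastasis as the source and MTT cells in the growth text, which goes against the group of the MPC arrays, and the line was taken from the sample title and the cell type. The methods call the MTT samples separate, without saying whether they were separate cultures, and do not describe the MPC samples. The p-values therefore rest on a spread among these samples that may be technical. All values are log2 signals as the authors deposited them, and differences are MTT minus MPC on that scale.

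The median log2 signal of an array was 7.73 to 7.77, and Pearson's r over all probe sets was 0.9974 to 0.9978 between MTT arrays, 0.9969 to 0.9973 between MPC arrays and 0.9960 to 0.9967 between the lines. Of 9 measured chromaffin cell markers 8 lay above the median gene signal of 8.28, led by Th, tyrosine hydroxylase, at 13.48. Pnmt lay under it, at 6.97 in MTT and 7.08 in MPC cells. The mean signal of the 9 markers on a log2 scale was 12.16 to 12.20 on MTT and 12.20 to 12.22 on MPC arrays. Of the 9 markers, 2 differed between the lines (limma): Slc18a1, a vesicular monoamine transporter, rose by 0.27 in MTT cells (adjusted p = 0.00424), and Chgb, chromogranin B, fell by 0.15 (adjusted p = 0.0233), though no longer past the threshold in 5 of 6 fits lacking 1 array. Their part in the results on the members was not tested. Markers of other cell types were mostly dim. The mean signal of 7 hepatocyte markers was 7.14 to 7.23 in MTT and 7.20 to 7.24 in MPC cells, with Apoa2, an apolipoprotein, brightest at 8.35. That of 6 fibroblast markers was 7.67 to 7.75 and 7.68 to 7.82. Of these 2 lay above the median gene signal, with Col1a1 brightest at 8.74. Endothelial, leukocyte and adrenal cortex markers all lay under the median gene signal, and no gene of these 5 lists passed the test between the lines.

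The respiratory chain was expressed at much the same level in both lines, and a pair of its subunits differed. Cox4i2, the hypoxia-inducible isoform of subunit 4 of complex IV, was lower in MTT cells, and Ndufs6, an accessory subunit of the NADH-oxidising arm of complex I, was higher. Thus 1 of 51 members rose, where 3.93% of all genes did, 1 fell, where 3.94% did, and 49 did not pass the test (limma, Benjamini-Hochberg adjusted p under 0.05 over all genes). Over all genes 7.87% passed, and 12.2% of those above the median gene signal, where all 51 members lie. The share among the members was 3.9%, but it depended on the variance model. When the prior variance followed the mean signal, 13.7% of the members passed and 12.1% of all genes. That share was not taken over genes above the median signal. With only genes above the median signal tested, 6 of 51 members and 2207 of 9968 genes passed. A lower signal in a bulk sample can mean less RNA per cell or fewer cells that hold it, and these cannot be told apart here.

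**Figure D1:**
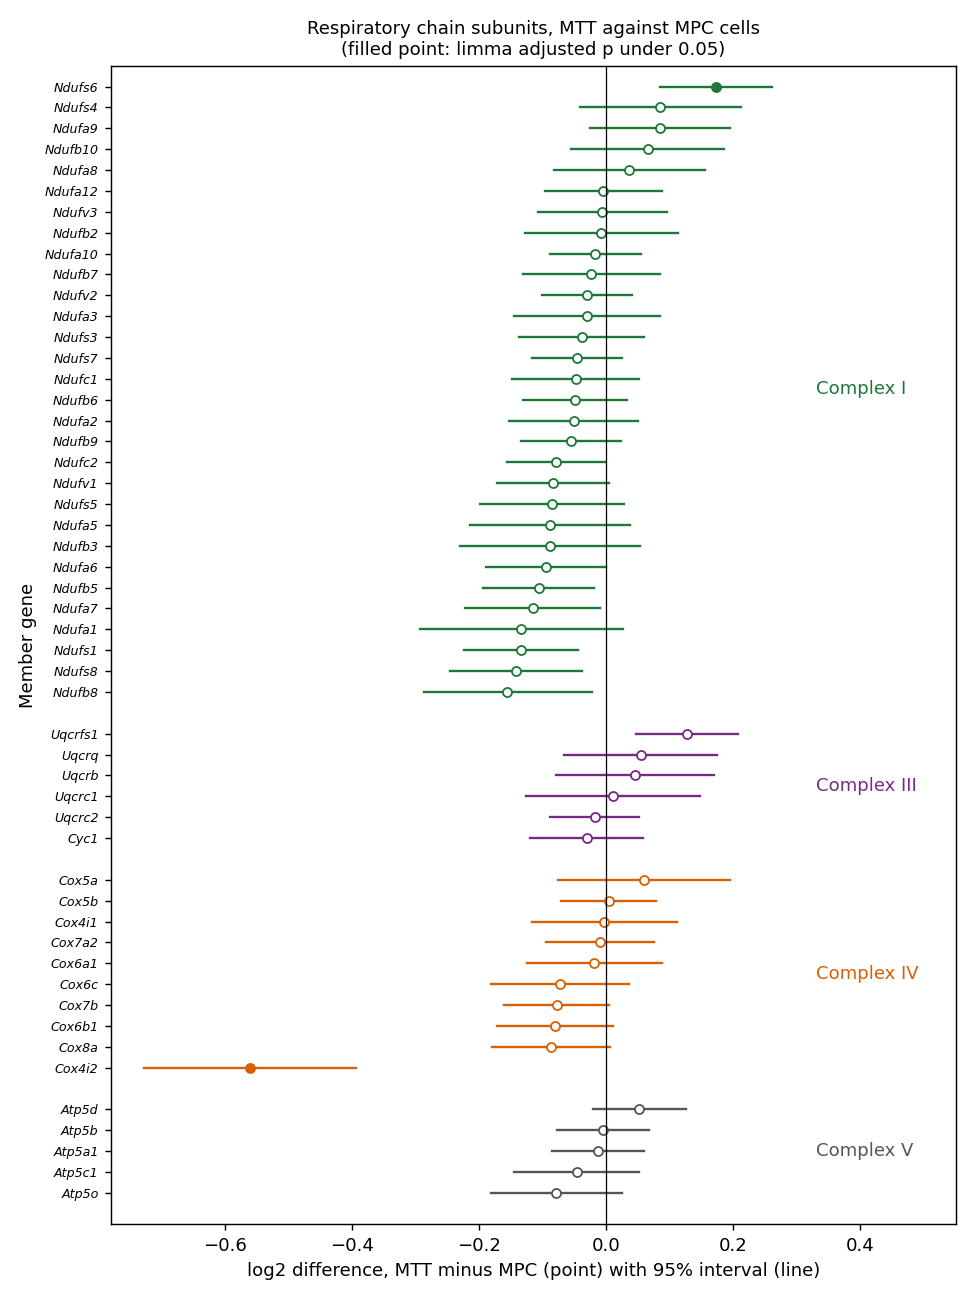
Log2 difference (MTT minus MPC, horizontal axis) of the 51 members (vertical axis), by complex, with 95% intervals from limma as lines and filled points for genes past an adjusted p of 0.05. Cox4i2 stands apart at -0.56, and the other members lie between -0.16 and 0.17.

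The differences were small beside what the arrays could resolve. The median absolute log2 difference was 0.054 among members, 0.050 among all genes and 0.056 among those above the median signal. The 95% interval of 48 members lay within a 1.2-fold difference in either direction. The exceptions were Cox4i2, Ndufb8 and Ndufa1. The median SD between arrays of a line was 0.054 in MTT and 0.037 in MPC cells, against 0.046 and 0.051 for all genes. An array signal includes a background that compresses folds, and precision is limited by how few arrays there are.

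Cox4i2 carried the largest difference of the members. Subunit 4 is the regulatory subunit at which ATP acts on cytochrome oxidase, and the Cox4i2 isoform is best known from lung and from oxygen-sensing cells, while Cox4i1 is the form of most tissues. The log2 signal of Cox4i2 was 9.48, 9.46 and 9.50 on the MTT arrays and 9.86, 10.14 and 10.13 on the MPC arrays. All MTT arrays lay below all MPC arrays, and MPC replicate 1 was the lowest of its line. The difference was -0.56 (standard error 0.07, 95% interval -0.73 to -0.39), 1.48-fold lower in MTT cells (limma adjusted p = 0.00297). Dropping any single array kept the call, at -0.66 to -0.51 (limma adjusted p 0.000205 to 0.0176), whereas unmoderated variances ended it (adjusted p = 0.0692).

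Its partner isoform gave no such difference. Cox4i1 read 11.65, 11.59 and 11.47 in MTT and 11.58, 11.54 and 11.60 in MPC cells, and the lines overlapped. Its difference was -0.003 (95% interval -0.12 to 0.11, limma adjusted p = 0.985). On each array the signal of Cox4i2 was set against that of Cox4i1, which cancels whatever scales both. This log2 ratio was -2.17, -2.12 and -1.98 on MTT arrays and -1.72, -1.40 and -1.47 on MPC arrays. The lines did not overlap in the ratio, with means of -2.09 ± 0.10 for MTT cells and -1.53 ± 0.17 for MPC cells (SD, n = 3 each). An exact two-sided permutation test gave p = 0.1, the smallest that 3 arrays against 3 allow, so it could not pass the threshold. With Cox4i1 nearly level, the difference in the ratio is that of Cox4i2 itself, and it is no ratio of transcripts, since probe sets differ in brightness.

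**Figure D2:**
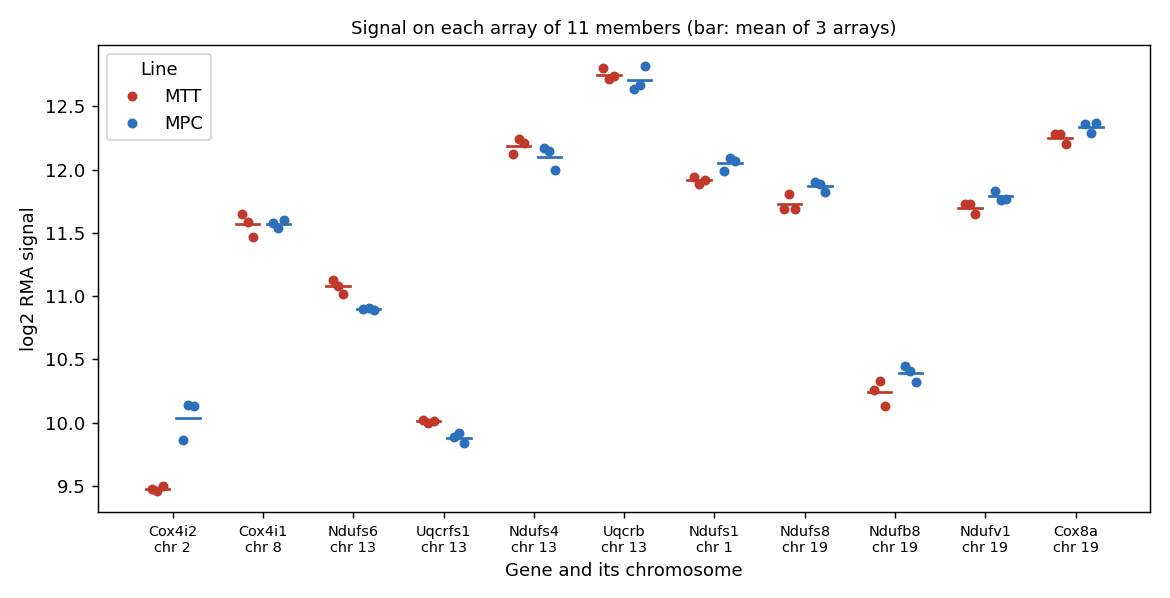
Log2 RMA signal (vertical axis) of 11 members with their chromosomes (horizontal axis) with 1 point per array, MTT red and MPC blue, in the order of replicates, with a bar at each mean. Cox4i2 lies at 9.46 to 9.50 in MTT and 9.86 to 10.14 in MPC cells, while Cox4i1 overlaps, and heights should not be compared between genes.

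The remaining members of complex IV differed little. Of 10 measured members 1 was lower and 9 did not pass, and the median log2 difference was -0.046, against -0.008 over all genes and -0.007 over those above the median signal. Cox7b, a small subunit of the membrane part, read 12.56, 12.48 and 12.50 in MTT and 12.62, 12.57 and 12.59 in MPC cells (log2 difference -0.078, adjusted p = 0.267). MTT arrays were also below all MPC arrays for Cox6b1, which sits on the face that meets cytochrome c (log2 difference -0.081), and for Cox8a (-0.087). Cox5a and Cox5b, which are both subunits on the matrix side, had differences of 0.059 and 0.004 and overlapped. Those of Cox6a1, Cox6c and Cox7a2 were -0.019, -0.073 and -0.010, with overlap.

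Complex I leaned lower in MTT cells in small steps, with 1 exception that was called. Of 30 members 25 had a log2 difference below 0, against 54.7% of all genes and 53.8% of those above the median signal, and the median was -0.049. None of the 25 passed the adjusted test. With an unadjusted p under 0.05, complex I had 7 lower and 1 higher members, against 11.7% and 8.84% of all genes, and 15.9% and 13% of those above the median signal. The MTT arrays lay below all MPC arrays in 8 of the 30 genes and above them in 1, while over all genes 15.4% lay below and 11.7% above. Above the median signal these shares were 22.4% and 17.7%. In complex I the lower share of 26.7% was near the former and the higher share of 3.3% below the latter, which was not tested. Among all 51 members 13 were lower (25.5%) and 3 higher (5.9%), where 27.2% of all genes did not overlap in either direction. All 51 members lie above the median signal, so the closer comparison is with 22.4% lower and 17.7% higher there. The members' lower share was near the former and their higher share below the latter, which was not tested either.

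Within complex I the lean was similar in its parts. The NADH arm holds the flavin and most of the iron-sulphur clusters, the quinone arm passes electrons to ubiquinone, and the membrane arm pumps protons. The median log2 difference was -0.041 over 10 members of the NADH arm, -0.046 over 5 of the quinone arm and -0.050 over 15 of the membrane arm. In the NADH arm Ndufs1, the largest subunit and a carrier of iron-sulphur clusters, read 11.94, 11.89 and 11.92 in MTT and 11.99, 12.09 and 12.07 in MPC cells. The lines did not overlap, and the log2 difference was -0.13 (95% interval -0.23 to -0.04, limma adjusted p = 0.0871). Ndufs1 passed when the prior variance followed the mean signal (adjusted p = 0.0089) and when dim genes were left out (adjusted p = 0.0216).

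Other subunits of these arms had differences of the same size. Ndufa7 of the NADH arm and Ndufb5 of the membrane arm had log2 differences of -0.12 and -0.11, each with all MTT arrays below all MPC arrays, and neither passed (adjusted p = 0.200 and 0.157). Ndufc2 and Ndufs7 did not overlap either, at -0.079 and -0.046. Ndufa1, which is X-linked, had a difference of -0.13 with a wide interval, -0.29 to 0.03, and its arrays overlapped. Upward, Ndufa9, which lies at the junction of the quinone and membrane arms, had a difference of 0.084 and Ndufb10 one of 0.065, and both overlapped. The 15 members of complex I that are not described singly had differences of -0.095 to 0.036, and none passed.

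Ndufs6 was the member called higher. It encodes a zinc-binding subunit that is needed late in the assembly of the NADH arm. The log2 signal was 11.13, 11.08 and 11.02 on MTT and 10.90, 10.91 and 10.89 on MPC arrays. All MTT arrays lay above all MPC arrays. The log2 difference was 0.17 (standard error 0.04, 95% interval 0.08 to 0.26, limma adjusted p = 0.0319), or 1.13-fold. It lost the call when any array but MTT replicate 3 was dropped, 5 of 6 fits (adjusted p 0.0787 to 0.109 in the 5), and with unmoderated variances (adjusted p = 0.0927).

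Complex III had no called member. Its median log2 difference was 0.028, with 4 of 6 members above 0. It was 0.003 without MTT replicate 1, 0.010 without MTT replicate 2, 0.013 without MPC replicate 2 and 0.057 without MTT replicate 3. Uqcrfs1, the Rieske iron-sulphur protein that takes electrons from ubiquinol, read 10.02, 10 and 10.01 on MTT and 9.89, 9.92 and 9.84 on MPC arrays. The lines did not overlap, and the log2 difference of 0.13 missed the threshold (95% interval 0.05 to 0.21, limma adjusted p = 0.0684). It passed when the prior variance followed the mean signal (adjusted p = 0.0238), when dim genes were left out (adjusted p = 0.0146) and after a further quantile normalization (adjusted p = 0.0357). Uqcrq, a small subunit, read 11.49, 11.43 and 11.30 in MTT and 11.32, 11.38 and 11.35 in MPC cells, a difference of 0.054 with overlap. The core proteins Uqcrc1 and Uqcrc2 had differences of 0.010 and -0.018, and Cyc1, the cytochrome c1 haem protein, one of -0.031. Without its members on chromosome 13 the median of complex III was -0.004.

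Complex V had no called member either. None of its 5 members passed, at an adjusted or an unadjusted p under 0.05, and the median log2 difference was -0.013. The catalytic beta subunit Atp5b read 13.38, 13.35 and 13.40 in MTT and 13.38, 13.38 and 13.39 in MPC cells, and the alpha subunit Atp5a1 differed by -0.013. Atp5o, of the peripheral stalk, read 11.83, 11.87 and 11.73 in MTT and 11.93, 11.87 and 11.87 in MPC cells, a difference of -0.079 with overlap (adjusted p = 0.373). Atp5d, the delta subunit of the central rotor, had a difference of 0.052 (adjusted p = 0.409). For Atp5d all MTT arrays lay above all MPC arrays, at 13.27, 13.24 and 13.27 against 13.23, 13.21 and 13.19. For Atp5c1, the gamma subunit, the difference was -0.046.

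**Figure D3:**
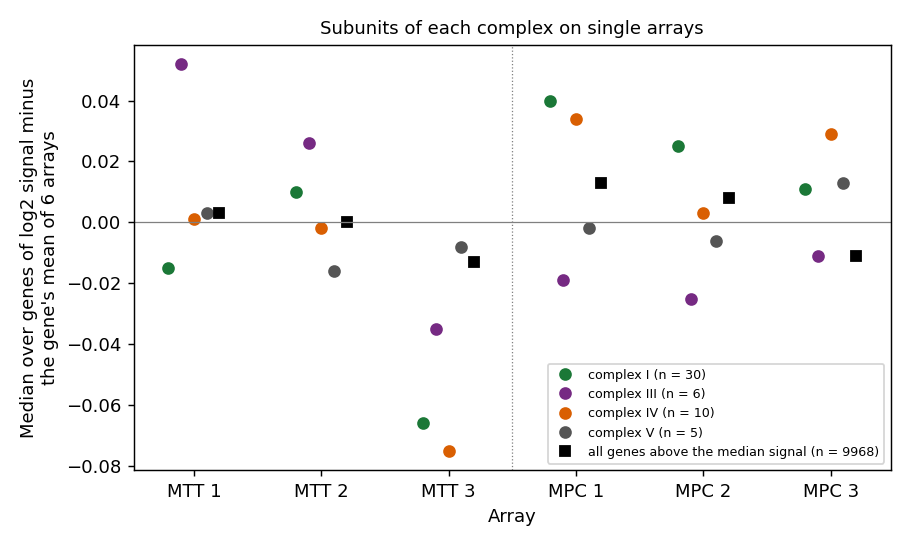
Median over the members of each complex of the log2 signal minus the gene's own mean over 6 arrays (vertical axis), on each array (horizontal axis), with all genes above the median signal as squares. MTT replicate 3 is lowest for complexes I, III and IV, at -0.066, -0.035 and -0.075.

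The lean of complexes I and IV was uneven over the arrays. After each gene was centred on its mean over 6 arrays, the median over complex I members was -0.015, 0.010 and -0.066 on the MTT arrays and 0.040, 0.025 and 0.011 on the MPC arrays. For complex IV it was 0.001, -0.002 and -0.075 against 0.034, 0.003 and 0.029. MTT replicate 3 was the lowest array in both, and in complex I MTT replicate 2 nearly met MPC replicate 3. Over all genes above the median signal the same array read -0.013. Without MTT replicate 3 the median log2 difference was -0.035 in complex I and -0.027 in complex IV, against -0.013 over all genes. In complex I 21 of 30 members then lay below 0. The part of this array in the lean was not tested further.

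The 3 members with the highest differences, Ndufs6, Uqcrfs1 and Ndufs4, lie on chromosome 13, and of the 3 lowest, Ndufb8 and Ndufs8 lie on chromosome 19. Both chromosomes were shifted as a whole between the lines, the former up and the latter down in MTT cells. Above the median signal, the median log2 difference was 0.195 over 368 genes of chromosome 13 and -0.111 over 337 of chromosome 19. The test called 33.9% of all chromosome 13 genes higher and 16.4% of all chromosome 19 genes lower, and 64.1% and 29.1% of those above the median signal.

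All 4 members on chromosome 13 had a difference above 0, as had 71.6% of its genes and 94.6% of those above the median signal, and 1 of them passed. Ndufs6 and Uqcrfs1 are given above, at 0.17 and 0.13. Ndufs4, an accessory subunit of the NADH arm whose loss in mice is a model of Leigh syndrome, read 12.12, 12.24 and 12.21 in MTT and 12.17, 12.15 and 12.00 in MPC cells, a difference of 0.085 with overlap (adjusted p = 0.437). Uqcrb, which binds near the quinone site of complex III, read 12.80, 12.72 and 12.74 against 12.64, 12.67 and 12.82, a difference of 0.045 with overlap. The median of the 4 was 0.106. The quartiles of that chromosome's genes above the median signal were 0.12 and 0.26, so Ndufs6 and Uqcrfs1 lay between them and Ndufs4 and Uqcrb under the lower one.

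All 4 members on chromosome 19 had a difference below 0, as had 75.7% of its genes and 88.7% of those above the median signal, and none passed. Ndufs8, an iron-sulphur subunit of the quinone arm, read 11.69, 11.81 and 11.69 in MTT and 11.90, 11.89 and 11.82 in MPC cells, without overlap (log2 difference -0.14, adjusted p = 0.111). It passed under the same alternatives as Ndufs1, the mean-dependent prior (adjusted p = 0.0167) and the removal of dim genes (adjusted p = 0.0319). Ndufb8, of the membrane arm, read 10.26, 10.33 and 10.13 against 10.45, 10.41 and 10.32, where 1 MTT array reached just above the lowest MPC array (log2 difference -0.16, adjusted p = 0.169).

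The last of these members carry the flavin and the end of complex IV. Ndufv1, which holds the NADH site and the flavin, read 11.73, 11.73 and 11.65 against 11.83, 11.76 and 11.77 (log2 difference -0.084, adjusted p = 0.266). Cox8a read 12.28, 12.28 and 12.20 against 12.36, 12.29 and 12.37 (log2 difference -0.087, adjusted p = 0.276). Neither overlapped between the lines. The median of the 4 was -0.115, near the chromosome's median of -0.111. Outside both chromosomes the 43 remaining members held 1 called gene, Cox4i2, with a median of -0.031, and complex I there had a median of -0.048 with 22 of 25 members below 0. Whether the chromosome sets the level of these members was not tested.

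**Figure D4:**
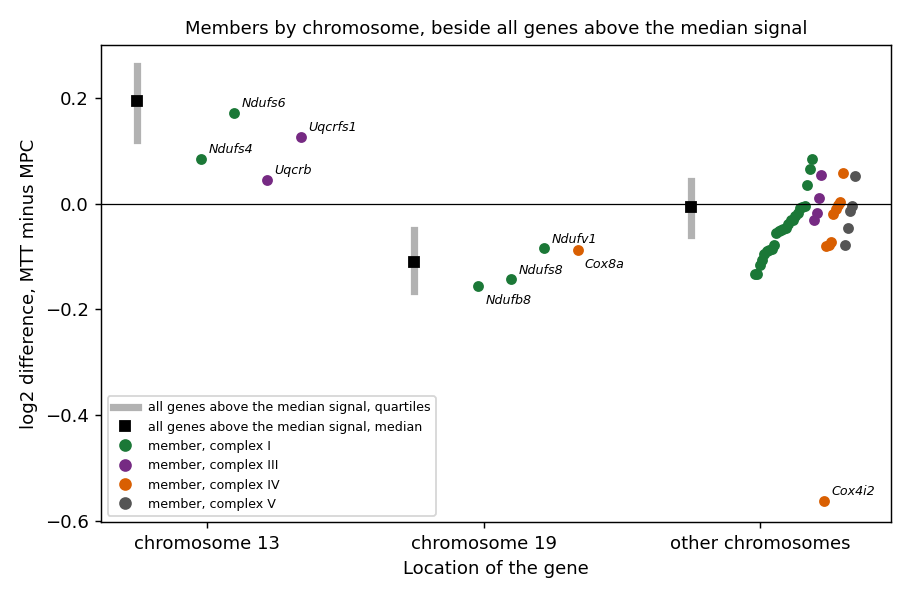
Log2 difference (MTT minus MPC, vertical axis) of members on chromosome 13, on chromosome 19 and elsewhere (horizontal axis), coloured by complex and spread sideways for legibility, beside the median (square) and quartiles (grey bar) of all genes above the median signal there. The 4 members of chromosome 13 lie at 0.045 to 0.17 and the 4 of chromosome 19 at -0.16 to -0.084.

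Several members were read by more than 1 probe set or may share probes with copies. For 6 members with several probe sets, among them Cox5b, Cox6c and Ndufc1, none of the probe sets passed. The 3 probe sets of Uqcrb, with mean signals of 12.73, 12.19 and 8.24, gave log2 differences of 0.045, 0.062 and 0.015. The pair for Ndufs3 gave -0.039 and -0.12, and the pair for Cox7b -0.078 and -0.095. RefSeq names a pseudogene with the suffix -ps for Ndufa12, Ndufs5, Cox5b and Atp5c1, and their signals may include such copies, which was not tested. Copies under other names were not searched for, so the list may miss members.

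The genes that build or surround the complexes were looked at in the same fit. Of 5 genes listed as further subunits of complex I (Ndufa4, now assigned to complex IV, among them), 4 of complex III and cytochrome c, 13 of ATP synthase and 4 of complex II that were measured, none passed the test. The number with an unadjusted p under 0.05 was 0, 1, 1 and 2 in turn, against 20.5% of all genes. The further ATP synthase subunits had a median of -0.030, with 12 of 13 below 0. Uqcrh, the hinge protein of complex III, had a log2 difference of -0.17 (adjusted p = 0.105), and all 4 genes of that list lay below 0. In complex II the subunits Sdha, on chromosome 13, and Sdhb had differences of 0.084 and 0.060, and Sdhc and Sdhd of -0.048 and -0.10. Of the mitochondrially encoded subunits 2 of 13 had a probe set of their own. ND3 of complex I read 13.22, 13.19 and 13.16 in MTT and 13.27, 13.21 and 13.38 in MPC cells, with overlap (log2 difference -0.093, adjusted p = 0.326), and COX2 of complex IV differed by -0.062.

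A further list held 8 genes of complex IV, tissue-restricted isoforms such as Cox7a1 together with Cox7a2l and Ndufa4l2. Of these 1 was lower, against 3.94% of all genes, and the median log2 difference was -0.116. Much of this list was dim. Cox6b2, Cox7b2, Cox8b and Cox8c lay under the median gene signal, and Cox6a2 lay close to it. Cox7a1, the isoform of heart and skeletal muscle, read 8.14, 8.26 and 8.29 in MTT and 8.48, 8.42 and 8.45 in MPC cells, close to the median gene signal and without overlap. It fell by 0.22 on the log2 scale (limma adjusted p = 0.0253). Leaving out 1 array at a time ended this in 5 of 6 fits, all but that lacking MTT replicate 3 (adjusted p 0.060 to 0.083 in the 5), and with unmoderated variances (adjusted p = 0.118). Cox7a2l, which joins complexes III and IV into supercomplexes, had a difference of -0.17 (adjusted p = 0.0796). Ndufa4l2, a hypoxia-inducible relative of Ndufa4, had one of -0.20 with an interval of -0.44 to 0.03 and overlap between the lines.

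Of 17 measured assembly factors of complex IV, MTT cells had 4 lower and 1 higher, against 3.94% and 3.93% of all genes. Cox15, which makes haem a for cytochrome oxidase and lies on chromosome 19, read 10.55, 10.52 and 10.56 in MTT and 10.77, 10.77 and 10.76 in MPC cells (log2 difference -0.22, limma adjusted p = 0.00435). Its lines did not overlap, and the call held in all 14 alternatives run for it. Cox19, a copper-handling factor, fell by 0.20, Coa5 fell by 0.18, and Lrpprc, which stabilises mitochondrial messenger RNAs, fell by 0.155. Cox11, which delivers copper to subunit 1, rose by 0.14. The calls of Coa5, Lrpprc and Cox11 ended in all 6 fits without 1 array and that of Cox19 in 4 of them. None of 14 assembly factors of complex I, 6 of complex III or 3 of ATP synthase passed. An unadjusted p under 0.05 was reached by 5, 1 and 1 of them in turn, against 20.5% of all genes. Tmem126b, which helps to build the membrane arm, had a difference of -0.20 (adjusted p = 0.0512) and Bcs1l, which inserts the Rieske protein, one of -0.13 (adjusted p = 0.0558).

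The start regions of the members were searched for short sequence features that the choice of genes did not use. RefSeq promoters of GRCm38.p6, 250 bases before to 50 after the start of a gene, were at hand for 41 members, Cox4i1, Cox4i2 and Ndufs1 not among them. Each was searched on both strands for a fixed string of letters per factor, counting a gene once. The NRF1 string can overlap its own reverse complement, as it does in Cox6a1 and Uqcrc1. The YY1 string AAGATGGCG occurred in 5 of 41 members (12.2%) and in 2.14% of 17492 protein-coding genes. The NRF1 string GCATGCGC occurred in 9.8% against 3.94%, the ETS string CCGGAAG in 17.1% against 12.95%, the SP1 string GGGGCGGGG in 12.2% against 17.30%, and the ERR string TCAAGGTCA in none against 0.38%. The YY1 string contains the triplet ATG and lay 23 to 36 bases into the transcript in all 5 members, on the strand of the gene. These 30-base windows are shown because they include Ndufs6, the member that rose. Capitals mark the YY1 string.
Ndufs6, chr13:73328433-73328462, minus strand: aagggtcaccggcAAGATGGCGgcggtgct
Ndufs4, chr13:114388045-114388074, minus strand: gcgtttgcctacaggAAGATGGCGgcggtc
Ndufa9, chr6:126849096-126849125, minus strand: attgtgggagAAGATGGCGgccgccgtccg
Ndufs7, chr10:80249463-80249492, plus strand: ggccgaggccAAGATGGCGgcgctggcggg
Ndufc1, chr3:51408914-51408943, minus strand: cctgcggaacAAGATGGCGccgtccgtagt
All belong to complex I. Their log2 differences were 0.17, 0.085, 0.084, -0.046 and -0.048 in this order, so genes with the string lay on both sides of 0. The ETS string occurred in 7 members, with log2 differences of -0.14 to -0.019. Cox6a1, Cox6b1, Ndufb6, Ndufb7 and Ndufs3 among them lie on chromosomes other than 13 and 19. Only the windows of Ndufs8 and Cox8a are shown, which lie on chromosome 19 and had the lowest differences of these. Capitals mark the reverse complement of the ETS string.
Ndufs8, chr19:3912741-3912770, minus strand: ttaggctccgcCTTCCGGttgaaccgcatc
Cox8a, chr19:7217603-7217632, minus strand: tttccgaaataCTTCCGGctcgggcgtccg
A match of letters is a description of these windows and says nothing on binding in either line.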

How the data were processed

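Per the methods and labels, the authors hybridised RNA of MTT and MPC cells, 3 samples each, and applied RMA (background subtraction, quantile normalization over arrays, summary per probe set), with Affymetrix Expression Console named in the submitters' notes. The methods name Partek Genomic Suite for RMA and ANOVA, and in a separate passage R for RMA. Which program made the deposited values cannot be told from these sources. The deposited values are log2 signals. Versions and the genome build were not given in the sources read.

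Of 34760 probe sets, 21640 had 1 symbol in the platform annotation, and the brightest per gene gave 19937 genes. Lines were compared with limma 3.58.1 (lmFit, eBayes, two-sided) in R 4.3.3 on all genes, with Benjamini-Hochberg adjustment. Chromosomes came from RefSeq GRCm38.p6, which 21620 probe sets matched. Promoter strings were searched in Python 3.11.15 and figures drawn with matplotlib 3.10.9. The code was tested on simulated data.

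Full values are given for called members, the 2 with the smallest p per complex, the 3 highest and lowest differences, members on chromosomes 13 and 19, and the Cox4 isoforms. Further members were singled out after their values were seen. Members and lists were chosen with earlier results of these data known. Alternatives were other variance models, the replicate number as a block, other probe set, filter and scaling choices, leaving out chromosomes 13 and 19, and leaving out each array.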

Additional observations from a re-analysis of the deposited data

How the results depend on the processing

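The count of 1569 genes called fell to 824 (428 higher, 396 lower) without moderation of the variances and was 2416 (1302 lower) with a mean-variance trend. It was 891 to 1276 without 1 array (462 to 617 higher, 429 to 659 lower). With dim genes left out 1195 were lower, and without chromosomes 13 and 19 there were 469 higher. Of the members, 2 were called (1 higher, 1 lower). Without moderation there were 0, of which 0 higher and 0 lower. With the trend there were 7 (2 higher, 5 lower), and with dim genes left out 6 (2 higher, 4 lower), where 2207 of 9968 genes were called. After quantile normalization 3 members were called (2 higher, 1 lower), where 1776 genes were (930 higher, 846 lower). Without chromosomes 13 and 19 there was 1 member, with 0 higher, where 1070 genes were called (469 higher). Without 1 array 1 to 2 members were called (0 to 1 higher, 1 lower). The median of complex III was -0.004 without chromosomes 13 and 19, and those of complexes III and V were 0.003 to 0.057 and -0.023 to -0.004 without 1 array. The medians of complexes I and IV stayed below 0, at -0.057 to -0.035 and -0.051 to -0.019, and no called value changed sign. The members whose arrays do not overlap numbered 16 of 51 (13 lower, 3 higher), where 22.4% of genes above the median signal lay lower and 17.7% higher. There were 12 after median centring, 18 after quantile normalization and 11 of the 43 outside chromosomes 13 and 19. Without 1 array there were 18 to 23, where fewer arrays separate more easily. Shares over all genes were not taken for these alternatives. Deviations of same-numbered arrays correlated at 0.116, 0.074 and 0.249 over genes, so the numbers were not taken to pair the samples, although every array correlated best with its own number. With the replicate number as a block 1501 genes and 2 members were called, and of the other genes named the calls of Coa5, Cox11, Coq4 and Tfb1m ended (adjusted p = 0.0718, 0.060, 0.0719 and 0.0609).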

Other observations

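Proteins of the large subunit of the mitochondrial ribosome, which makes the mitochondrially encoded subunits, had 2 higher and 2 lower genes among 48 measured in MTT against MPC cells (limma, adjusted p under 0.05, against 7.87% of all genes), with a median log2 difference of -0.017. Mrpl32 rose by 0.21 and Mrpl36 by 0.15, and both lie on chromosome 13. Mrpl16 fell by 0.17 and Mrpl21 fell by 0.20, and both lie on chromosome 19. Leaving out 1 array at a time, Mrpl32 lost its call in 3 of 6 fits, Mrpl36 in 6, and Mrpl16 and Mrpl21 in 5 each. Over all lists of subunits, assembly factors, ribosomal proteins, coenzyme Q synthesis and regulators, 155 genes, the 4 on chromosome 13 had a difference above 0 and the 11 on chromosome 19 one below 0, while elsewhere 45 of 140 lay above 0 and 5% were called.

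Of 12 measured genes of coenzyme Q synthesis, which makes the electron carrier between complexes I and III, 1 was higher, where 3.93% of all genes were. This gene, Coq4, rose by 0.13, a call that ended in all 6 fits without 1 array. Of 19 regulators of mitochondrial biogenesis 1 was called, where 7.87% of all genes were. Tfb1m, a methyltransferase of mitochondrial ribosomal RNA, fell by 0.14, also lost in all 6 of these fits. The coactivator Ppargc1a read 6.89 in MTT and 6.87 in MPC cells, under the median gene signal, and Tfam, which packages mitochondrial DNA, had a log2 difference of -0.013 (95% interval -0.12 to 0.09).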
